A study of Mus musculus with 10 samples.

Results

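The genes described here encode the TGF beta ligands Tgfb1, Tgfb2 and Tgfb3, the signalling receptors Tgfbr1, Tgfbr2 and Acvrl1, the coreceptors Tgfbr3 and Eng, and the matrix proteins Ltbp1 and Ltbp2. They are 10 of the 19938 named genes tested. A member had to be the 1 symbol annotated to a probe set, and the probe set with the highest mean over the 10 arrays was to stand for it. Each member had 1 such probe set, so signal made no choice among them. The members were selected by gene name, with earlier results of these data known, and their mean signal was the measured value that the rule used.

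Whole oviducts of prepubertal mice homozygous for a lacZ insertion in the progesterone receptor gene, Pgr, called PRKO, were compared with those of heterozygous PR+/- mice. The insertion disrupts both receptor isoforms, and PR+/- mice, which carry 1 disrupted allele too, have normal fertility per the series' design text. At an age of 21 to 23 days, every mouse of both genotypes received 5 IU of equine chorionic gonadotropin to make follicles grow and, 44 to 47 h later, 5 IU of its human counterpart (hCG), which triggers ovulation, and oviducts were taken 8 h later. Oviducts of 3 animals were pooled for each Affymetrix whole-transcript array, giving 5 arrays (15 animals) of PRKO and 5 arrays (15 animals) of PR+/-. The receptor is disrupted in the whole animal, ovary included.

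TGF beta is secreted in a latent form and held in the matrix by latent TGF beta binding proteins until proteases, thrombospondin or integrins release it. The active dimer binds the type II receptor TGFBR2, which recruits the type I receptor TGFBR1 (also called ALK5), and the pair phosphorylates SMAD2 and SMAD3. Betaglycan, encoded by Tgfbr3, is a membrane proteoglycan without kinase activity that presents ligand, TGF beta 2 above all, to TGFBR2, and that also binds inhibin. Endoglin (Eng) is a related coreceptor abundant in endothelium. There it works with the type I receptor ALK1 (Acvrl1), which signals through SMAD1 and SMAD5. In smooth muscle and fibroblasts the pathway is known for driving contractile and matrix genes.

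Values are log2 signals as the authors deposited them, a unit inferred from their range of 1.09 to 13.6. Array medians lay between 5.22 and 5.28 in PRKO and between 5.20 and 5.24 in PR+/-. PRKO pools varied more than PR+/- pools, with a median SD per gene of 0.17 and 0.11 on the log2 scale and correlations between arrays of 0.988 to 0.992 and 0.994 to 0.996. PRKO replicate 5 had the narrowest interquartile range of signal, 3.13. The 4 remaining PRKO arrays had 3.27 to 3.42 and the PR+/- arrays 3.37 to 3.48. Ovarian markers (6 of 8 listed were measured) averaged 5.50 in PRKO replicate 3 and at most 4.50 on the 4 remaining PRKO arrays, and 5.62 in PR+/- replicate 4 and at most 4.13 on the 4 remaining PR+/- arrays. Epithelial markers were detected in both genotypes. Pax8, a transcription factor of Müllerian epithelium, averaged 8.50 ± 0.20 in PRKO and 8.51 ± 0.052 in PR+/-, and Foxj1, the master regulator of motile cilia, 7.05 ± 0.18 in PRKO and 7.16 ± 0.11 in PR+/- (SD, n = 5 each). Of 8 epithelial markers 1 was called, the keratin gene Krt19 (log2 change -0.40 ± 0.11, limma adjusted p = 0.0475), with Krt18 at -0.21 (0.243) and Cldn4 at -0.19 (0.329). The call on Krt19 was lost in 5 of the 6 alternatives run for the lists, and held under median centring. Of 5 mesothelial markers 1 was called, mesothelin (Msln, -0.45 ± 0.10, 0.0177), with Upk3b at -0.26 (0.171) and Upk1b at -0.10 (0.561). The call on Msln was lost in 2 of these 6 alternatives. They were the fit without PR+/- replicate 4 and PRKO replicate 3, and that with the interquartile range as a covariate. None of the multiciliated, leukocyte, platelet or ovarian markers was called. In these lists the smallest p belonged to Tekt2 and Foxj1 (-0.15 and -0.11), Itgam and S100a9 (0.31 and 0.34), Ppbp and Itga2b (0.25 and 0.16), and Nr5a1 and Fshr (0.15 and 0.15), at limma adjusted p values of at least 0.116.

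The targeted gene followed the labels. Pgr measured 6.36 ± 0.037 in PRKO and 7.42 ± 0.11 in PR+/- (SD, n = 5 each), a log2 change of -1.06 ± 0.072 (SE, limma adjusted p = 1.00e-06). The position of its probes relative to the lacZ insertion was not analysed here, so the signal left in PRKO is no measure of functional mRNA.

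Of the TGF beta genes, the betaglycan gene Tgfbr3 was 1.94-fold lower in PRKO oviducts and the type II receptor gene Tgfbr2 1.34-fold lower, and no member was called higher. A gene was called at a Benjamini-Hochberg adjusted p under 0.05 over all 19938 genes in limma. By that rule 2 of 10 members were called, both lower in PRKO, against 4.96% of all genes called in either direction, 3.87% lower and 1.09% higher. Calls were more frequent among brighter genes. Without the dimmest 50% of probe sets, 979 of 9794 genes were called lower and 174 higher, with the same 2 members among the 9 tested. The 2 genotypes' values did not overlap for these 2 members, and for 7.20% of all genes. The median log2 change was -0.14 over the 10 members and 0.03 over all genes. It was -0.045 over the genes left without the dimmest 50% of probe sets. Since the tissue was bulk oviduct, fewer cells of a type and less RNA per cell cannot be told apart.

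**Figure D1:**
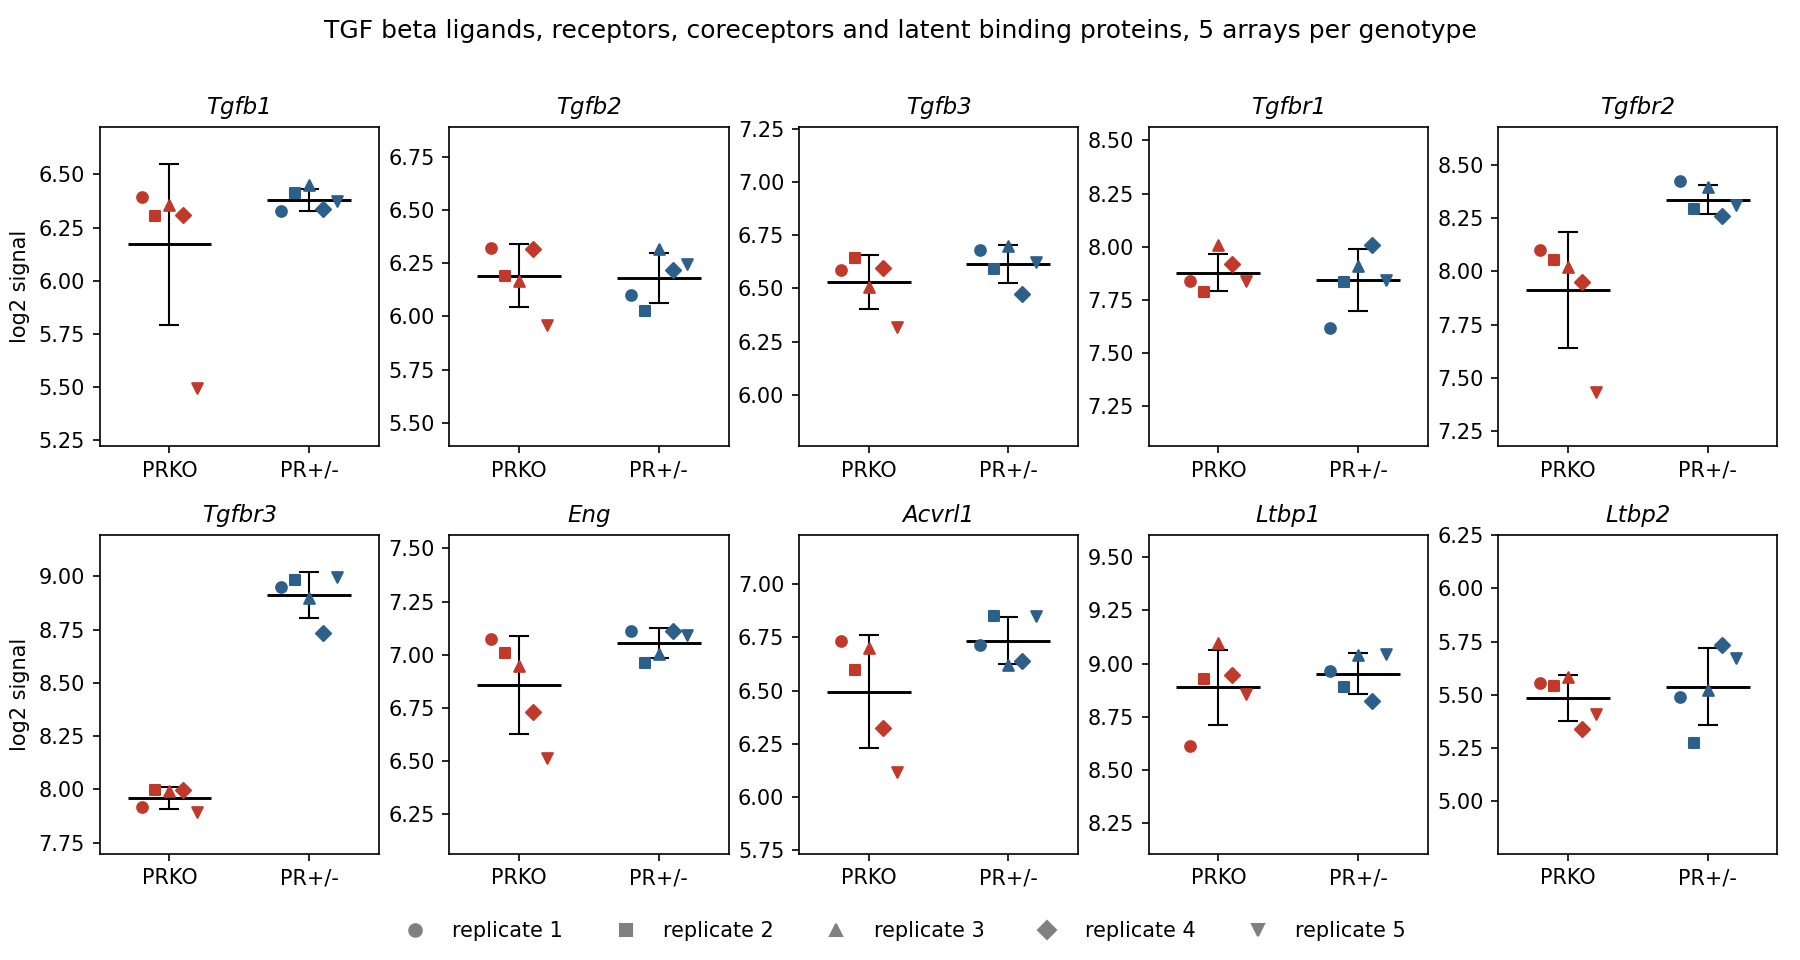
Log2 signal (vertical axis) of each gene on every array, with PRKO in red on the left and PR+/- in blue on the right of each panel. Marker shapes give the replicate, the black line is the mean and the bar the SD (n = 5 each), and each panel spans the same 1.5 log2 units. Tgfbr3 and Tgfbr2 are the genes whose genotypes do not overlap, and the lowest Tgfb1 and Tgfbr2 values are those of PRKO replicate 5.

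Promoter sequences were read from RefSeq's table for GRCm38.p6 as the 250 bases before each annotated start, and 7 of the 10 members matched, with 9 windows. Tgfb3, Tgfbr3 and Acvrl1 are named only. Tgfbr2 was called lower and Tgfbr1 was not, though the test of their unequal change, given below, did not pass after adjustment. The windows of this signalling receptor pair are shown because their calls differed, with the first of the 2 windows of Tgfbr1. Both read 5′ to 3′ on the gene's strand, with capitals marking the motif matches named after them.
Tgfbr2, chr9:116175364-116175613, minus strand: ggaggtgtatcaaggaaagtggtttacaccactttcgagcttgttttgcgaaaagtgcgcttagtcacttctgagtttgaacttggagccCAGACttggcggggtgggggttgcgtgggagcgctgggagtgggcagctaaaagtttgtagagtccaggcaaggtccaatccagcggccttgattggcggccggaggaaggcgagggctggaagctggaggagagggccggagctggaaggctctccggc
Tgfbr1, chr4:47352972-47353221, plus strand: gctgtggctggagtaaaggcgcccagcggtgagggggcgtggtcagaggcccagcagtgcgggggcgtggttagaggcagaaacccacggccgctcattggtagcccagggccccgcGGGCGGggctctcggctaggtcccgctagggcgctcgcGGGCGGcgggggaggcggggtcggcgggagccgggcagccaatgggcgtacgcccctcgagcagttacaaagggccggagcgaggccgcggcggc

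The printed window of Tgfbr1 is 74.8% G and C with 29 CpG dinucleotides and holds the GC box GGGCGG at 2 places, a motif found in 32.7% of the 32851 promoter windows of the table. That of Tgfbr2 is 58.4% G and C with 12 CpG dinucleotides and holds the core of the SMAD box, CAGAC, at 1 place, which 42.2% of all windows also hold. The second window of Tgfbr1 is nearer to that of Tgfbr2, with 52.8% G and C, 3 CpG dinucleotides, CAGAC at 1 place and no GC box. The steroid receptor half-site AGAACA, present in 16.1% of all windows, was found in 0 of the 9 windows of members, and the TATA box TATAAA, present in 12.4%, in the window of Tgfb2. All motifs were sought on both strands, and no matches overlapped. A match is a description of letters in this window, and not a bound site.

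Among the ligands, none was called. Tgfb1, the isoform of platelets, leukocytes and many other cells, measured 6.39, 6.30, 6.35, 6.31 and 5.50 in PRKO replicates 1 to 5, against 6.33, 6.41, 6.45, 6.34 and 6.38 in PR+/- replicates 1 to 5. PRKO replicates 1 to 4 lay at or close to the PR+/- level, and PRKO replicate 5 lay far below them. The log2 change of -0.21 ± 0.14 (SE, n = 5 each, limma adjusted p = 0.415) was -0.04 ± 0.065 without that array.

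Tgfb2, the isoform that depends most on betaglycan for binding to TGFBR2, spanned 5.96 to 6.32 in PRKO and 6.02 to 6.32 in PR+/-. Its log2 change was 0.01 ± 0.088, with a 95% interval of -0.18 to 0.20. Tgfb3, an isoform of mesenchyme and developing epithelia, spanned 6.32 to 6.64 in PRKO and 6.48 to 6.70 in PR+/-, with a log2 change of -0.08 ± 0.080 and an interval of -0.26 to 0.09. The genotypes overlapped for both isoforms, and both were lowest in PRKO replicate 5. No difference between genotypes was detectable in either ligand at this precision.

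Whether the ligands changed unequally was tested on the per-array difference between 2 genes, as 1 of 9 such pairs of related members. The change of Tgfb2 exceeded that of Tgfb1 by 0.22 ± 0.13 (SE, two-sided exact permutation p = 0.0714, adjusted over the 9 pairs 0.129). Tgfb3 and Tgfb1 differed by 0.12 (exact permutation p = 0.437), and Tgfb3 and Tgfb2 by -0.10 (exact permutation p = 0.198). Without PRKO replicate 3 the first of these pairs passed, at an adjusted exact permutation p of 0.0179.

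The latent binding proteins were not called either. Ltbp1, which anchors the latent complex in the matrix, spanned 8.61 to 9.10 in PRKO and 8.82 to 9.04 in PR+/-, with a log2 change of -0.06 ± 0.091 and an interval of -0.26 to 0.13. The PRKO arrays included both the lowest value, in replicate 1, and the highest, in replicate 3. Ltbp2, a microfibril protein of the same family that does not itself bind latent TGF beta, spanned 5.34 to 5.59 in PRKO and 5.27 to 5.73 in PR+/-, and all 5 PRKO values lay inside the PR+/- span. Its log2 change was -0.05 ± 0.093, with an interval of -0.25 to 0.15, and the pair's changes differed by 0.01 (exact permutation p = 0.897).

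Of the receptors that carry the signal, Tgfbr2 was called and Tgfbr1 and Acvrl1 were not. Tgfbr2 measured 8.10, 8.06, 8.02, 7.95 and 7.43 in PRKO replicates 1 to 5, against 8.42, 8.29, 8.40, 8.26 and 8.31 in PR+/- replicates 1 to 5. All 5 PRKO arrays lay below the lowest PR+/- array, and replicate 5 lay well below the other PRKO arrays. The means were 7.91 ± 0.27 in PRKO and 8.34 ± 0.070 in PR+/- (SD, n = 5 each), a log2 change of -0.43 ± 0.11, or 74.4% of the PR+/- signal (limma adjusted p = 0.0438).

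The call on Tgfbr2 was close to the threshold. Without PRKO replicate 5 the log2 change was -0.31 ± 0.070 and the adjusted p 0.0267. The call was lost when any PR+/- array, PRKO replicate 3 or PRKO replicate 4 was left out (limma adjusted p 0.0587 to 0.109), and in a fit with the spread of each array (its interquartile range) as a second term the log2 change was -0.17 ± 0.12 (limma adjusted p = 0.595). Array spread itself differed with genotype, 3.13 to 3.42 in PRKO and 3.37 to 3.48 in PR+/-. That fit therefore cannot fully separate spread from genotype, for this or any other gene.

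Tgfbr1, the type I partner of Tgfbr2, measured 7.84, 7.79, 8.01, 7.92 and 7.84 in PRKO replicates 1 to 5, against 7.62, 7.83, 7.91, 8.01 and 7.85 in PR+/- replicates 1 to 5. Every PRKO value fell inside the PR+/- span. Its log2 change was 0.03 ± 0.083, with an interval of -0.14 to 0.21. The change of Tgfbr2 was lower than that of Tgfbr1 by 0.46 on the log2 scale (difference -0.46 ± 0.15, exact permutation p = 0.0238), which did not pass over the 9 pairs (adjusted p 0.0536) although it did without PR+/- replicate 4 (adjusted p 0.0357).

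Tgfbr3 showed the deepest fall of the 10 genes. It measured 7.92, 8.00, 7.99, 8.00 and 7.89 in PRKO replicates 1 to 5, against 8.95, 8.98, 8.90, 8.73 and 9.00 in PR+/- replicates 1 to 5. Every PRKO array lay below the lowest PR+/- array by more than either genotype's span, and the PRKO arrays spanned 0.11 where the PR+/- arrays spanned 0.27. Its means were 7.96 ± 0.051 in PRKO and 8.91 ± 0.11 in PR+/- (SD, n = 5 each).

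The log2 change of Tgfbr3 was -0.95 ± 0.073 (SE, limma adjusted p = 2.31e-06), with an interval of -1.11 to -0.80, so that PRKO oviducts held 51.7% of the PR+/- signal. By p it was the 24th of all 19938 genes, and by size the 70th deepest fall. The log2 change was -0.90 ± 0.094 in the fit that includes array spread (limma adjusted p = 2.83e-04).

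Tgfbr3 was set against 3 other receptor genes, and its log2 change was lower than each of theirs. It was not set against Acvrl1. The difference of log2 changes was -0.99 ± 0.11 against Tgfbr1, -0.53 ± 0.12 against Tgfbr2 and -0.75 ± 0.12 against the other coreceptor, Eng. Per-array differences did not overlap between genotypes in any of these 3 pairs, and each gave a two-sided exact permutation p of 0.00794, the smallest that 5 against 5 arrays allow (adjusted over the 9 pairs 0.0238). The 9 pairs shared members, and Tgfbr3 stood in 3 of them.

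**Figure D2:**
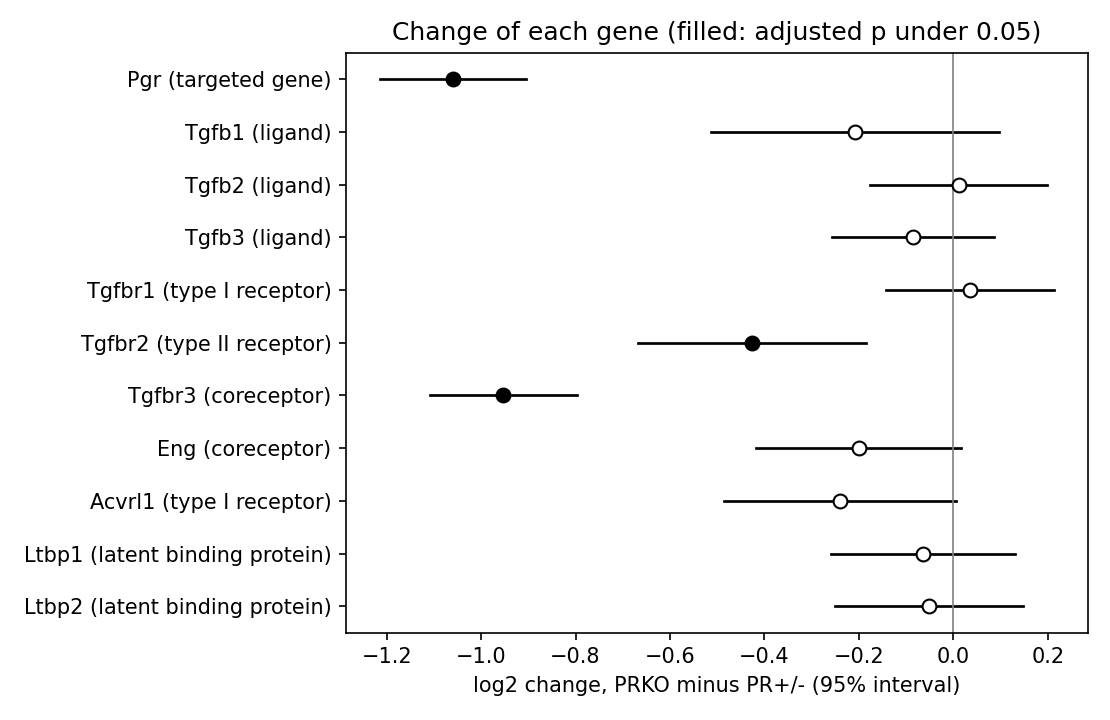
Log2 change, PRKO minus PR+/- (horizontal axis), of Pgr and each of the 10 genes, with 95% intervals from limma. Filled points passed an adjusted p of 0.05: Pgr at -1.06, Tgfbr2 at -0.43 and Tgfbr3 at -0.95, while the other intervals include 0.

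Smooth muscle markers fell as a whole list, pericyte markers in part, and of 8 fibroblast markers 1 was called. Of all genes 3.87% were called lower. All 10 smooth muscle markers fell, and their mean log2 signal was 8.00 to 8.31 on PRKO arrays and 8.91 to 9.07 on PR+/- arrays. The call on Lmod1 was lost without PR+/- replicate 4 and PRKO replicate 3. In every other alternative run for the lists all 10 were called. Desmin (Des) had a log2 change of -1.51 ± 0.096, smooth muscle gamma actin (Actg2) one of -1.20 ± 0.081, and Myocd, a transcriptional coactivator of contractile genes, one of -0.92 ± 0.11. Of 6 pericyte markers 3 fell: Kcnj8 and Abcc9, subunits of an ATP-sensitive potassium channel (log2 changes -1.44 ± 0.099 and -0.87 ± 0.12), and the G protein regulator gene Rgs5 (-0.48 ± 0.11), whose call was lost in the fit that includes array spread. The PDGF receptor gene Pdgfrb had a log2 change of -0.32 (limma adjusted p = 0.0841), Cspg4 one of 0.01, and Notch3 one of 0.16 (0.241), with 4 of 5 PRKO arrays above the highest PR+/- array, and the list's mean was 6.32 to 6.49 in PRKO and 6.78 to 7.01 in PR+/-. Of 8 fibroblast markers 1 fell, the PDGF receptor gene Pdgfra (-0.39 ± 0.097), with list means of 9.02 to 9.30 in PRKO and 9.16 to 9.37 in PR+/-, and its call was lost under quantile, cyclic loess and median scaling. The matrix proteoglycan gene Lum, of the same list, had a log2 change of 0.37 ± 0.12 (limma adjusted p = 0.0887), with 4 of 5 PRKO arrays above the highest PR+/- array. The dimmest markers, Lmod1 of smooth muscle and Cspg4 of pericytes, averaged 5.99 and 5.03 over all arrays. The part of these cell types in the fall of Tgfbr3 was not tested.

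Genes whose pattern lay closest to that of Tgfbr3 were sought over all genes by the root mean square difference across the 10 arrays, each gene being centred on its own mean. They were Igfbp7, a secreted protein that binds insulin-like growth factors (difference 0.066 log2 units), Cnn1, the smooth muscle protein calponin (0.067), and Mcam, a cell adhesion molecule of endothelium, pericytes and smooth muscle (0.068). Their log2 changes were -0.89 ± 0.078, -0.92 ± 0.080 and -0.86 ± 0.074. For Tgfbr2 the closest were Zfp523, a zinc finger gene (0.079), Scarf2, a scavenger receptor gene (0.081), and Timm50, a subunit of the mitochondrial import machinery (0.084). Of these Scarf2 was called (limma adjusted p = 0.0475), with Zfp523 at 0.0599 and Timm50 at 0.0711. The genes were chosen on the same 10 arrays, which fixes that their changes lie near those of Tgfbr3 and Tgfbr2.

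The endothelial receptors Eng and Acvrl1 were not called. Eng measured 7.08, 7.01, 6.95, 6.73 and 6.52 in PRKO replicates 1 to 5, against 7.11, 6.96, 7.00, 7.11 and 7.09 in PR+/- replicates 1 to 5. Acvrl1 measured 6.73, 6.60, 6.70, 6.32 and 6.12 in PRKO replicates 1 to 5, against 6.72, 6.85, 6.62, 6.64 and 6.85 in PR+/- replicates 1 to 5. For both genes PRKO replicates 4 and 5 lay well below every PR+/- array, and PRKO replicate 1 lay within the PR+/- span.

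The log2 change was -0.20 ± 0.10 for Eng (limma adjusted p = 0.273) and -0.24 ± 0.11 for Acvrl1 (limma adjusted p = 0.246). Without PRKO replicate 5 they were -0.12 ± 0.082 and -0.15 ± 0.096. The 2 changes differed by -0.04 ± 0.072 (exact permutation p = 0.571). Within PRKO the SD of their per-array difference was 0.070, less than the 0.23 of Eng and the 0.27 of Acvrl1. Within PR+/- it was 0.15, more than the 0.070 of Eng and the 0.11 of Acvrl1. The PRKO pattern was not particular to this pair. The difference between Tgfb3 and Tgfb2 had a PRKO SD of 0.075, against 0.13 for Tgfb3 and 0.15 for Tgfb2.

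Endothelial markers showed a spread of their own. Of 15 markers, 2 fell, the sialomucin gene Emcn (-0.53 ± 0.11, limma adjusted p = 0.00969) and the adhesion molecule gene Pecam1 (-0.27 ± 0.070, 0.0374). The call on Pecam1 was lost in all 6 alternatives run for the lists, and that on Emcn in the fit that includes array spread. Of the 15 log2 changes 12 were below 0, as were 8743 of those of all 19938 genes, and the median of the 15 was -0.17. The uncalled markers of smallest p were the phosphatase gene Ptprb (-0.27, limma adjusted p = 0.119) and the VEGF receptor gene Flt1 (-0.36, 0.121), while the endothelial cadherin gene Cdh5 and the VEGF receptor gene Kdr had -0.02 and 0.02. The mean log2 signal of the list was 5.88, 6.01, 6.04, 5.86 and 5.76 in PRKO replicates 1 to 5, against 6.02 to 6.13 in PR+/-. PRKO replicates 5 and 4 were lowest, as for Eng and Acvrl1. PRKO replicate 1 was also below the PR+/- span, and PRKO replicate 2 just below it (6.010 against 6.019). For Eng and Acvrl1, by contrast, PRKO replicate 1 was the highest PRKO array. The list's dimmest gene, Robo4, averaged 5.07, and the part of endothelial content in the values of Eng and Acvrl1 was not tested.

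**Figure D3:**
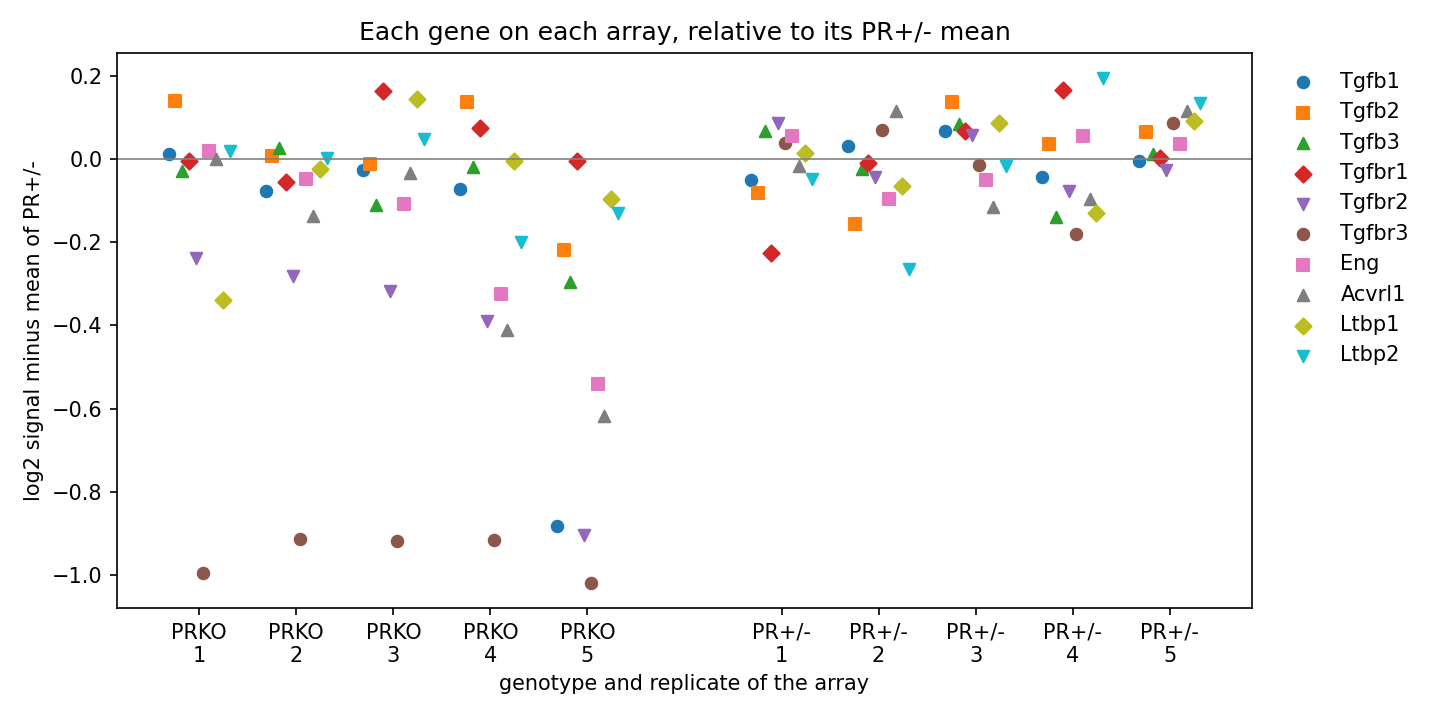
Log2 signal of each gene on each array (horizontal axis), as the difference from that gene's PR+/- mean (vertical axis), with PRKO arrays on the left and PR+/- arrays on the right. Tgfbr3 sits near -0.95 on all 5 PRKO arrays, while Tgfb1, Tgfbr2, Eng and Acvrl1 are lowest on PRKO replicate 5.

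PRKO replicate 5 held the lowest PRKO value for 7 of the 10 genes, against 27.8% of all genes. The exceptions were Tgfbr1, Ltbp1 and Ltbp2. Among the 10 genes 7 had the larger SD in PRKO, against 74.7% of all genes. Tgfbr3, Tgfbr1 and Ltbp2 had the smaller SD in PRKO.

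Further genes of the pathway were taken from 7 lists drawn up with earlier results of these data known. Of 81 listed genes 78 were measured under a symbol of their own, and 19 fell, none rose and 59 were not called (limma, adjusted p under 0.05 over all genes), beside the 3.87% of all genes that were called lower. Without the dimmest 50% of probe sets, 979 of 9794 genes were called lower, and the lists were not recounted in that fit. The median log2 change of the 78 was -0.09, beside 0.03 over all genes and -0.045 over those left without the dimmest 50%.

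In the storage list, 1 of 7 genes fell, Ltbp4, a latent binding protein of elastic tissue, which averaged 8.64 ± 0.18 in PRKO and 9.20 ± 0.12 in PR+/- (SD, n = 5 each), a log2 change of -0.56 ± 0.095 (limma adjusted p = 0.00286). This call was lost in the fit that includes array spread. The elastic fibre protein gene Emilin1, whose product restrains processing of the TGF beta precursor, had a log2 change of -0.29 (limma adjusted p = 0.0747), and the microfibril gene Fbn2 one of -0.32 (0.136). The list's median was -0.17.

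Among 12 genes for the release of active ligand, 3 fell, and all were integrin beta subunits that pair with alpha V. Itgb5 averaged 7.92 ± 0.079 in PRKO and 8.65 ± 0.14 in PR+/- (log2 change -0.73 ± 0.080), Itgb3 6.99 ± 0.21 in PRKO and 7.68 ± 0.12 in PR+/- (-0.69 ± 0.10), and Itgb1 had a log2 change of -0.29 ± 0.071. The call on Itgb1 was lost in 5 of the 6 alternatives run for the lists, and held without PRKO replicate 5. The alpha V subunit gene Itgav and Itgb6 and Itgb8, the subunits best known for activating TGF beta, had log2 changes of 0.02, 0.03 and -0.09, and thrombospondin 1 (Thbs1) one of -0.04. The uncalled genes of smallest p were the protease genes Plau (-0.39, limma adjusted p = 0.114) and Mmp14 (-0.23, 0.140). The list's median was -0.07.

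Of the 4 small proteoglycans that bind TGF beta, 2 fell. Bgn, biglycan, averaged 8.33 ± 0.21 in PRKO and 9.38 ± 0.073 in PR+/-, 2.07-fold lower (log2 change -1.05 ± 0.096). Aspn, asporin, averaged 7.08 ± 0.44 in PRKO and 8.10 ± 0.16 in PR+/-, 2.02-fold lower (-1.02 ± 0.17). Fibromodulin (Fmod) and decorin (Dcn) had log2 changes of -0.27 and -0.16 and were not called.

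The list of SMAD and TAK1 signal transducers showed no call, while Smad1, placed in the list of the ALK1 and endoglin axis, was called lower. None of 8 SMAD and TAK1 pathway genes passed, their log2 changes ran from -0.09 for Tab1 to 0.07 for Map3k7, the kinase TAK1, and the median was 0.00. The changes were 0.05 for Smad2, -0.06 for Smad3 and -0.06 for the common partner Smad4, and their 95% intervals lay between -0.22 and 0.22. Of 15 inhibitors none passed either. Fkbp1a, which keeps type I receptors inactive, had a log2 change of -0.29 (limma adjusted p = 0.0588), the decoy receptor gene Bambi one of -0.26 (0.129), and the feedback inhibitor Smad7 one of -0.12.

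In the list of the ALK1 and endoglin axis, 3 of 9 genes fell. Id3, an inhibitor of basic helix-loop-helix factors induced by SMAD1 and SMAD5, averaged 4.38 ± 0.20 in PRKO and 5.11 ± 0.069 in PR+/- (log2 change -0.72 ± 0.093). Tmem100, a membrane protein induced through ALK1 in endothelium, averaged 8.78 ± 0.34 in PRKO and 9.50 ± 0.10 in PR+/- (-0.72 ± 0.13). Smad1 had a log2 change of -0.36 ± 0.082. Id1, the close relative of Id3, had one of -0.12 (limma adjusted p = 0.537), and Gdf2, the ALK1 ligand BMP9, one of 0.17 (0.295). In the fit that includes array spread the 1 call left was Id3.

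The last list held genes that TGF beta is known to induce in other cells. It had 10 members that fell and 13 not called, with a median log2 change of -0.25. The matricellular protein gene Postn averaged 8.65 ± 0.30 in PRKO and 10.09 ± 0.10 in PR+/-, Ccn2, connective tissue growth factor, 7.34 ± 0.18 in PRKO and 8.34 ± 0.10 in PR+/-, and Tgfbi, a secreted adhesion protein named for its induction by TGF beta, 7.51 ± 0.13 in PRKO and 8.35 ± 0.039 in PR+/- (SD, n = 5 each). The log2 changes of Postn and Tgfbi were -1.44 ± 0.12 and -0.84 ± 0.077, and the 95% interval of that of Ccn2 was -1.20 to -0.80 (limma adjusted p at most 1.56e-05 for each). Timp3, a metalloproteinase inhibitor, had one of -0.82 ± 0.093.

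The other 6 that fell were Tgfb1i1, Acta2, Tagln, Lox, Tpm1 and Nox4, with log2 changes of -0.25 to -0.71. Nox4 was the dimmest gene of the list and averaged 3.89 over all arrays, below the median signal of every array. Acta2 and Tagln also belong to the smooth muscle markers, all of which fell, and the part of smooth muscle content in this list was not tested. Fn1, fibronectin, had a log2 change of 0.00, Col1a1 one of -0.11, Col3a1 one of -0.28 (limma adjusted p = 0.0645), and the transcription factor gene Zeb1 one of -0.25 (0.0582). Without PRKO replicate 5, 8 of the 23 genes fell, Lox and Nox4 no longer being called, and the same 8 fell in the fit that includes array spread.

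**Figure D4:**
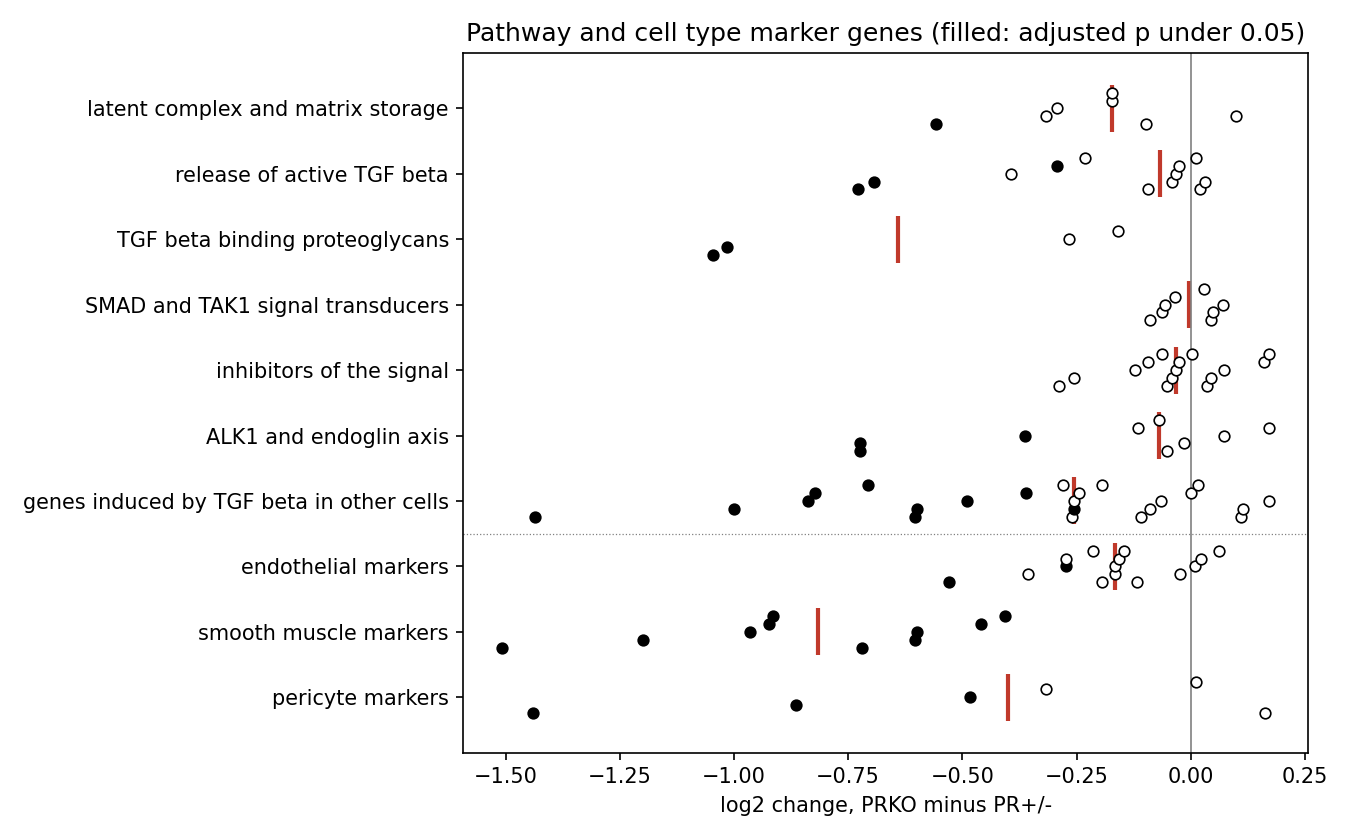
Log2 change, PRKO minus PR+/- (horizontal axis), of every measured gene of the 7 pathway lists and, under the dotted line, of 3 marker lists. Filled points passed an adjusted p of 0.05, open points did not, red bars are medians, and vertical offsets separate points. The lists of SMAD and TAK1 signal transducers and of inhibitors hold no filled point. Of the 4 TGF beta binding proteoglycans 2 lie beyond -1, and all 10 smooth muscle markers are filled.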

How the data were processed

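Per the labels' protocols, total RNA of pooled oviducts was biotin-labelled with the Affymetrix whole-transcript kit. The authors deposited 1 log2 value per probe set and array. Partek is the tool named in the submitters' processing notes. The sources used here say nothing of its release or of how background, normalization and probe summary were handled, and the log2 unit was inferred from the values. The arrays were not normalized again, and no filter on dim signal was applied. Of 35557 rows, 21789 had 1 gene symbol in the platform annotation, 1621 several and 12147 none there. Symbols were checked through gene IDs against the GRCm38 gene table, and 0 changed. The brightest probe set stood for each of 19938 genes.

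The 2 genotypes were set against each other in R 4.3.3 with limma 3.58.1 (lmFit and eBayes, genotype as the term, 8 residual and 6.08 prior degrees of freedom), adjusted over all genes. Values with ± are SE for changes and SD for levels. Pairs of members were tested on per-array differences with an exact permutation test, and their SE comes from the 2 genotypes' variances. The procedures were tested on simulated data. The labels give the arrays as biological replicates, 1 pool each, and p-values therefore reflect variation among pools, while 10 arrays limit the precision. The members, gene lists, tests and most alternatives were chosen with earlier results of these data known. Named were all members, Pgr, up to 4 called and 2 uncalled genes of smallest p per list, and the 3 genes most like each called member. Other genes named with values were chosen after these were seen. Same-numbered arrays of the 2 genotypes deviated from their group means with correlations of -0.013 to 0.16, and were not paired. Fbn1, Cdkn1a, Ovgp1, Gp1bb, Cyp19a1 and Lhcgr had no probe set of their own symbol and were not analysed here.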

Additional observations from a re-analysis of the deposited data

Results flagged for a closer look

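An array that stood far from the other 4 of its genotype was sought in 134 sets of 5 values (67 genes in 2 genotypes), where a gap above 0.71 of the whole range marks the array. Chance marks about 5% of such sets, and 7 were marked. Among the TGF beta genes they were Tgfb1 and Tgfbr2, both through a low value in PRKO replicate 5. Tgfb1 measured 5.50 there, against 6.30 to 6.39 on the other 4 PRKO arrays, a gap of 0.902 of the range. Tgfbr2 measured 7.43 there, against 7.95 to 8.10, a gap of 0.775 of the range. Timm50 is not among the 67 genes, since it was chosen for its likeness to Tgfbr2 across these arrays, which fixes where it is low. It measured 5.91 on the same array, against 6.37 to 6.53 (gap 0.745).

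The other 5 lay elsewhere. Emilin1 was low in PRKO replicate 4 (6.55 against 6.86 to 6.97, gap 0.736). In PR+/- replicate 4 the protease gene Plau was high (7.11 against 6.47 to 6.55, gap 0.88), Id1 was low (5.84 against 6.19 to 6.32, gap 0.736) and Des was low (8.40 against 8.58 to 8.64, gap 0.743). Cldn4 was low in PR+/- replicate 1 (5.04 against 5.35 to 5.48, gap 0.711).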

How the results depend on the processing

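The call and direction of Tgfbr3 held in all 23 alternatives, with log2 changes of -1.01 to -0.89, and those of Pgr in all 12. Tgfbr2 stayed lower in all 23 but lost its call in 11, which made the count of called members 1 instead of 2 under quantile normalization (log2 change -0.36, limma adjusted p = 0.0571), with every row of the table tested (0.105), with the interquartile range as a covariate, without PR+/- replicate 4 and PRKO replicate 3 together (0.0902), and at an adjusted p of 0.01. Leaving out 1 array gave 1 to 2 called members and 581 to 1165 called genes (988 with all arrays), 581 without PR+/- replicate 1 and 598 without PR+/- replicate 2. Called genes numbered 322 with the interquartile range as a covariate, 562 without PR+/- replicate 4 and PRKO replicate 3, 412 at an adjusted p of 0.01 and 1731 at 0.1. Median centring moved the split to 349 higher and 672 lower, from 217 and 771 as deposited.

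Small changes turned sign. With the covariate the log2 changes were 0.12 for Tgfb1, 0.062 for Tgfb3 and -0.022 for Tgfbr1. Ltbp1 reached 0.038 without PRKO replicates 1 and 5, and -0.148 without PR+/- replicate 4 and PRKO replicate 3. Leaving out 1 array gave -0.028 to 0.068 for Tgfb2, -0.022 to 0.076 for Tgfbr1, -0.12 to 0.0049 for Ltbp1, -0.078 to 0.013 for the difference between Acvrl1 and Eng, and -0.075 to 0.092 for that between Ltbp2 and Ltbp1, which was -0.038 under quantile and -0.040 under cyclic loess normalization. With the replicate number as a block, 1042 genes and 2 members were called. Sign flips within replicate numbers left 0 of 9 pair differences past the threshold, the 3 of Tgfbr3 at an adjusted exact permutation p of 0.141, where the 32 arrangements allow no unadjusted p under 0.0625. Leaving out 1 array gave 3 to 4 pairs. Without the dimmest 50% of probe sets Ltbp2 was not tested. The counts of the gene lists were recomputed under 6 alternatives chosen after the data were seen. Except where stated beside a result, the causes of these shifts were not tested.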
